A study of Rattus norvegicus with 6 samples.

Results

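The bone morphogenetic protein (BMP) ligands and secreted antagonists described here are 9 genes, taken by symbol from the 40995 genes of a rat lung count table: the ligands Bmp2, Bmp3, Bmp4, Bmp5, Bmp6 and Bmp7, and the antagonists and modulators Grem1, Nog and Bmper. The 9 were chosen with KO against WT results of these libraries in view, so every difference between genotypes in them is a description. Their calls in a test over all genes are only counted beside those of all genes, and no support is drawn from them. All 9 passed the filter on low counts, which left 18464 genes for testing. Lung mRNA of 3 wild-type (WT) rats was compared with that of 3 rats of the crTMPRSS2 knockout (KO) line, in which CRISPR/Cas9 was aimed at rat Tmprss2, the gene of a transmembrane serine protease. All 6 rats were on a Sprague-Dawley background and none was treated. The labels name them biological replicates, and the sources used here do not give sex, age, litter or the number of founders of the line.

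BMPs are secreted dimers of the TGF-beta family. They bind type I and type II serine/threonine kinase receptors, which phosphorylate SMAD1, SMAD5 and SMAD9; these enter the nucleus with SMAD4 and switch on targets such as the Id genes and the feedback inhibitors Smad6 and Smad7. Antagonists such as gremlin and noggin bind the ligands outside the cell and keep them from the receptors. In lung, the pathway is known for its part in branching, in the vessel wall and in the balance of alveolar and airway progenitors, and loss of the receptor BMPR2 is a known cause of heritable pulmonary arterial hypertension.

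The library of WT replicate 1 differed from all the others, so fold changes are given with and without it. Total counts ran from 29933359 to 36895162 per library. The correlation of log2 CPM (counts scaled to 1000000 per library) across genes was 0.936 to 0.948 between WT replicate 1 and the others, and at least 0.979 among the other 5. The 8 skeletal muscle markers summed to 9300 CPM in it and to 22.1 to 50.3 CPM elsewhere, and the 8 squamous epithelium markers to 3309 CPM against 5.64 to 11.4 CPM. Its 9 endothelium markers were also high, at 9274 CPM against 4879 to 5365 CPM. Sftpc, the surfactant protein C gene that defines alveolar type II cells, stood at 8325 to 15410 CPM in all 6 libraries. Tmprss2 mRNA was still present in the KO, at 46.1, 56.4 and 47.0 CPM against 50.5, 62.0 and 65.7 CPM in WT, and a gene total does not check an edit that leaves the transcript in place.

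The starts of the member genes differ in sequence. The promoter sequences come from RefSeq (build GRCr8), which held 7 of the 9 members; Bmp2 and Bmp7 were not among them. The 250 bases before the start are shown for Bmp3, the member with the largest difference between genotypes, for Bmp4, an abundant ligand whose groups overlapped, and for Bmper, the most abundant of the antagonists. They lie at chr14:11041283-11041532 (minus strand), chr15:22101934-22102183 (minus strand) and chr8:30007916-30008165 (plus strand), each written 5′ to 3′ on the gene's strand. Capitals mark 4 motifs searched on both strands: GGCGCC, a palindrome bound by BMP-activated SMADs; GGGCGG, the GC box; CACGTG, an E-box; and TATAAA, the TATA box.
Bmp3: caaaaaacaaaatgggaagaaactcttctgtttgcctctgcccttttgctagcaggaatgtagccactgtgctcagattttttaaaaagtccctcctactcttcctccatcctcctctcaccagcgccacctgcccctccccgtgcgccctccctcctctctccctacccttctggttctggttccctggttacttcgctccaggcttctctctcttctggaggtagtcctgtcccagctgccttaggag
Bmp4: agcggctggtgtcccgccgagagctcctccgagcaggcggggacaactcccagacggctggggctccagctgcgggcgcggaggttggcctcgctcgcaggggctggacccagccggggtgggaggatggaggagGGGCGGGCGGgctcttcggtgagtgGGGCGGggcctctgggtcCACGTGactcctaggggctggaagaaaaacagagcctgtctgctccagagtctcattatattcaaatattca
Bmper: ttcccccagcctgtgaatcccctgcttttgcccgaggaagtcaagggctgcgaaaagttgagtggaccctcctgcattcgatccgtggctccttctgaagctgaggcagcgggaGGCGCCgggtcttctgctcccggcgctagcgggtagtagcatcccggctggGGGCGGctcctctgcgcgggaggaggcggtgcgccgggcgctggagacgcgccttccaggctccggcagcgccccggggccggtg
None of the 4 motifs is in the Bmp3 window, which has 53.6% G and C, against a median of 51.2% over all 33469 promoters of the same length. The Bmp4 window (66.4% G and C) holds 3 GC boxes, at 115, 111 and 90 bases before the start, of which the first 2 overlap, and an E-box at 72 bases. GGCGCC was found once in each antagonist window, at 136 bases before the start in Bmper, 91 in Grem1 and 51 in Nog, and in none of the 4 ligand windows (Bmp3, Bmp4, Bmp5, Bmp6). Over all promoters 8.69% held GGCGCC, 30.5% a GC box, 5.59% CACGTG and 12.9% TATAAA. The antagonist windows were also the richest of the 7 in G and C, at 69.6% to 74.0%. A match of letters is not a bound site.

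Per kilobase of transcript, 2 ligands made up most of the mRNA of the 6 listed BMP ligands in these lungs. Bmp6, best known as an endothelial signal that sets hepcidin in the liver, averaged 88.7 ± 23.8 FPKM (deposited fragments per kilobase, scaled to library size) in WT and 75.6 ± 1.59 in KO (SD, n = 3 each). Bmp4, the ligand of lung branching, averaged 52.9 ± 5.89 FPKM in WT and 46.7 ± 4.67 in KO. Together they held 88.2% to 93.3% of the summed FPKM of the 6 ligands in each library. In WT, the order below them was Bmper (6.63 FPKM), Bmp2 (4.26), Bmp5 (3.96), Bmp3 (2.78), Bmp7 (1.26), Nog (0.761) and Grem1 (0.172). The WT libraries of Bmp2 and Bmp5, of Bmp5 and Bmp3, of Bmp3 and Bmp7, and of Bmp7 and Nog overlapped, while the other neighbours in that order did not. In KO, Bmp3 came after Bmper (7.38 FPKM) at 7.18 FPKM and overlapped it, and Bmp5 (5.21 FPKM) and Bmp2 (2.54 FPKM) followed. In WT replicates 2 and 3 the order of these ligands was Bmp5 (4.79 FPKM), Bmp2 (4.29) and Bmp3 (1.96), since the place of Bmp2 above Bmp5 in WT rests on the low Bmp5 value of WT replicate 1 (2.30 FPKM). Bmp3 stood below Bmp2 and Bmp5 in the WT means with or without that library, and above both in the KO mean. The other 6 genes kept their order relative to each other.

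**Figure D1:**
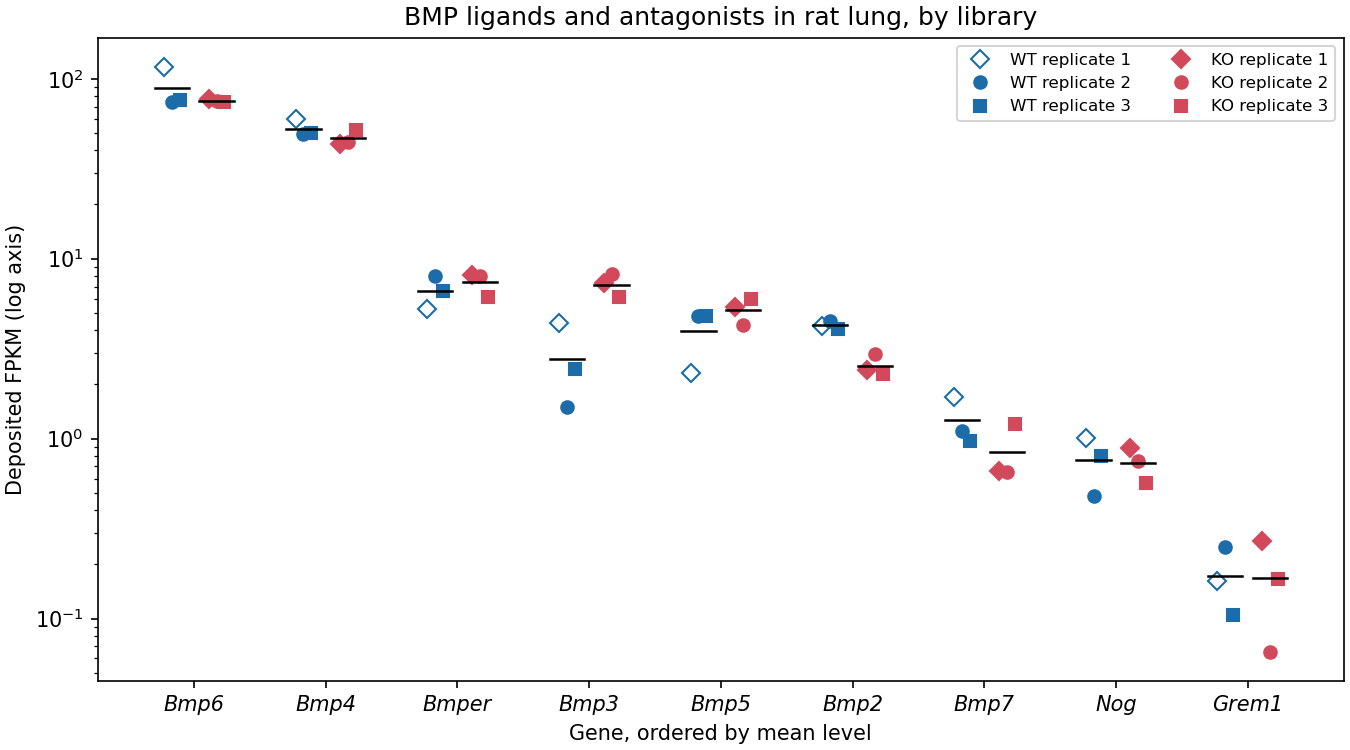
Deposited FPKM of the 9 genes on a log axis, 1 point per library, WT in blue and KO in red, with the mean of each group as a black line; WT replicate 1 is the open diamond. The 3 KO points of Bmp3 (6.09 to 8.17) lie above the 3 WT points (1.50 to 4.42), those of Bmp2 (2.28 to 2.95) lie below (4.05 to 4.53), and the groups of the other 7 genes overlap.

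Bmp3 was the ligand with the largest difference. Its product is an unusual family member that opposes the bone-forming BMPs in the skeleton. Bmp3 (chromosome 14, 10712489 to 10737153 of mRatBN7.2, minus strand) had 280, 108 and 197 counts in WT replicates 1 to 3 and 490, 565 and 415 in KO replicates 1 to 3. Scaled to library size by edgeR, these were 9.48, 3.26 and 5.28 CPM in WT and 15.9, 17.8 and 13.2 CPM in KO. Every KO library lay above every WT library, and the highest WT value was that of WT replicate 1. WT averaged 6.01 ± 3.17 CPM and KO 15.6 ± 2.30 CPM (SD, n = 3 each), 2.60-fold higher in KO. The log2 fold change (KO over WT) was 1.38 with a standard error (SE) of 0.37, and 1.87 (SE 0.22) without WT replicate 1, where the 2 remaining WT libraries averaged 4.27 CPM. In the authors' deposited table of 192 genes, Bmp3 is the one member listed, with a log2 fold change of 1.37. The smallest absolute log2 fold change in that table is 1.001, so the absence of the other members is not a finding of no difference.

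Bmp2 differed in the opposite direction. It encodes a ligand of the BMPR1A and BMPR2 receptors with roles in heart, bone and vessel. Bmp2 (chromosome 3, 120812660 to 120822579, plus strand) had 329, 402 and 404 counts in the WT libraries and 198, 251 and 191 in the KO libraries, in replicate order. These were 11.1, 12.1 and 10.8 CPM in WT and 6.41, 7.91 and 6.09 CPM in KO. The groups did not overlap, and here WT replicate 1 lay between the other 2 WT libraries. The means were 11.4 ± 0.675 and 6.80 ± 0.973 CPM (SD, n = 3 each), 1.67-fold lower in KO, with a log2 fold change of -0.74 (SE 0.17) and of -0.75 (SE 0.16) without WT replicate 1. The ratio of Bmp3 to Bmp2 FPKM was 1.05, 0.331 and 0.600 in WT replicates 1 to 3 and 3.05, 2.77 and 2.67 in KO replicates 1 to 3. The ratio was highest among WT in WT replicate 1, where both genes were near the same FPKM, and all 3 KO ratios lay above it. With Bmp3 higher and Bmp2 lower in KO, both without overlap, the ratio had to separate the groups. It is no further observation.

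**Figure D2:**
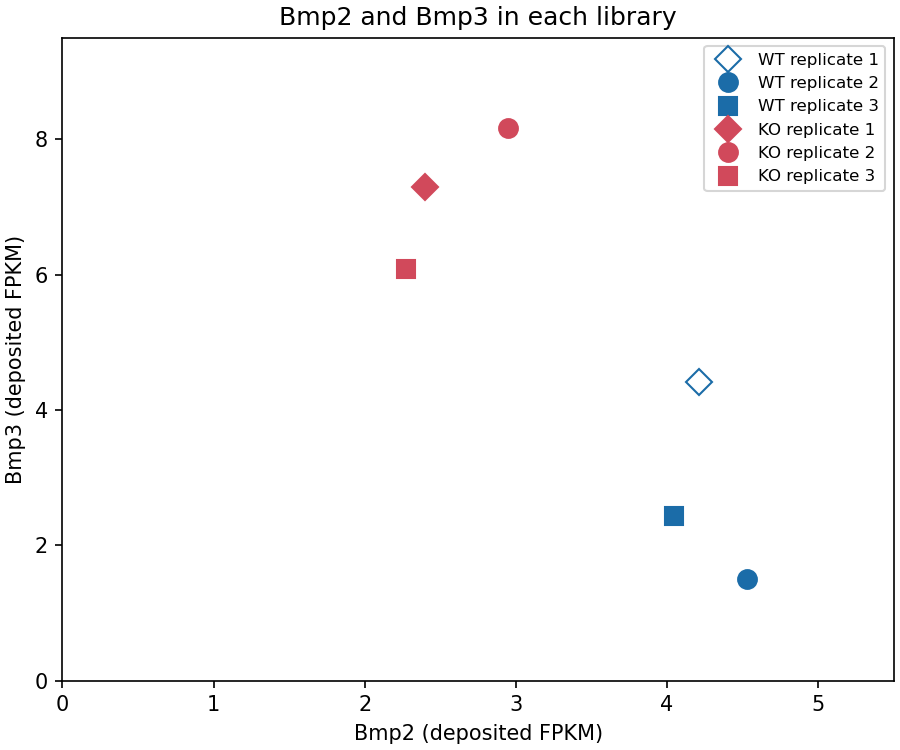
Deposited FPKM of Bmp2 (x axis) and Bmp3 (y axis) in each of the 6 libraries, both axes from 0. The 3 KO libraries lie at the upper left (Bmp2 at most 2.95, Bmp3 at least 6.09) and the 3 WT libraries at the lower right (Bmp2 at least 4.05, Bmp3 at most 4.42).

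The 2 abundant ligands were near the same level in both genotypes once WT replicate 1 was set aside. Bmp6 (chromosome 17, 26318121 to 26469034, minus strand) measured 325.9, 210.4 and 215.5 CPM in WT and at 219.7, 214.0 and 211.2 CPM in KO. WT replicate 1 was high and the other 5 libraries lay close together. Its log2 fold change was -0.22 (SE 0.18), and 0.01 (SE 0.05) without that library, so the sign turned. The 9 endothelium markers were high in the same library (9274 CPM); whether they and Bmp6 share a source there was not tested. Bmp4 (chromosome 15, 19618538 to 19633494, minus strand) measured 166.1, 138.6 and 140.3 CPM in WT and at 122.7, 126.0 and 146.9 CPM in KO, so the groups overlapped. Its log2 fold change was -0.17 (SE 0.12), and -0.08 (SE 0.08) without WT replicate 1.

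Bmp5 and Bmp7 were lower ligands with overlapping groups. Bmp5 (chromosome 8, 76517164 to 76639925, plus strand), a close relative of Bmp6 and Bmp7, stood at 8.50, 17.9 and 17.9 CPM in WT and at 20.0, 16.1 and 22.3 CPM in KO. WT replicate 1 was less than the other 5 libraries. The log2 fold change was 0.40 (SE 0.29), and 0.12 (SE 0.14) without it. Bmp7 (chromosome 3, 161639915 to 161716938, minus strand), known from kidney development, stood at 6.20, 4.04 and 3.57 CPM in WT and at 2.43, 2.40 and 4.43 CPM in KO. KO replicate 3 reached the WT range while the other 2 KO libraries lay below it. The log2 fold change was -0.57 (SE 0.34), and -0.30 (SE 0.30) without WT replicate 1.

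Among the 3 antagonists of the set, Bmper was the most abundant. Bmper (chromosome 8, 21732225 to 21977261, plus strand), a secreted protein with cysteine-rich repeats that binds BMPs and can dampen or promote their signal, stood at 23.5, 36.2 and 29.6 CPM in WT and at 36.3, 36.1 and 27.4 CPM in KO. The groups overlapped; the log2 fold change was 0.16 (SE 0.19), and 0.02 (SE 0.13) without WT replicate 1. Bmper held 81.9% to 91.7% of the summed FPKM of the 3 antagonists.

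Noggin and gremlin 1 mRNA were scarce in every library. Nog (chromosome 10, 74128712 to 74130339, minus strand), whose product binds BMP2, BMP4 and BMP7, had 48, 26 and 49 counts in WT and 45, 39 and 29 in KO. LOC102547753 overlaps it on the opposite strand with 10 to 44 counts, and since strand handling is not given, reads of the pair may not be separated. Grem1 (chromosome 3, 100512317 to 100524001, minus strand), a cystine-knot antagonist known from fibrotic lung, had 18, 32 and 15 counts in WT and 32, 8 and 20 in KO. Both genes overlapped widely between groups. With all 6 libraries the log2 fold changes were -0.04 (SE 0.38) for Nog and -0.04 (SE 0.60) for Grem1. Without WT replicate 1 they were 0.19 (SE 0.41), with the sign turned, and -0.08 (SE 0.66). At this depth a change of the size of these errors, or somewhat larger, could not be told from none. Summed FPKM of the 6 ligands exceeded that of the 3 antagonists by 29.3-fold in WT replicate 1, 15.4- and 18.4-fold in WT replicates 2 and 3, and 14.8-, 15.4- and 20.8-fold in KO replicates 1 to 3. The KO range therefore overlapped that of WT replicates 2 and 3. The size of this ratio holds for these 3 antagonists only. The 18 other antagonists and modulators of the pathway summed to 323.5 to 469.1 FPKM per library, above the 6 ligands (135.1 to 188.5 FPKM).

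**Figure D3:**
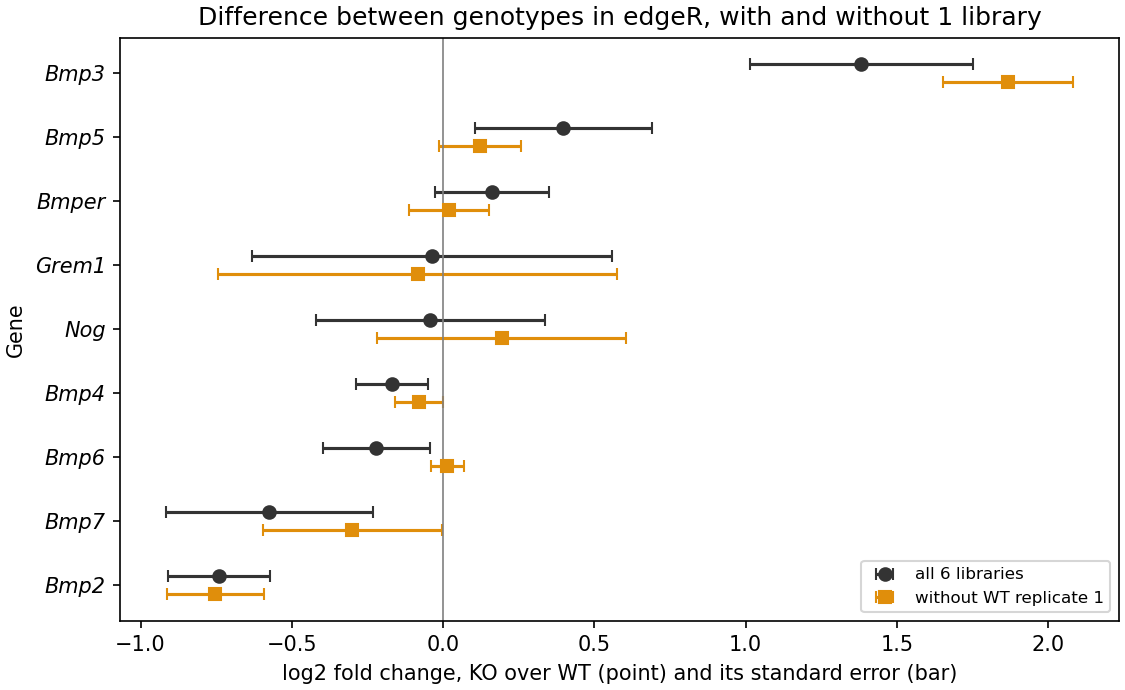
log2 fold change of each gene, KO over WT, in edgeR with all 6 libraries (black circles) and without WT replicate 1 (orange squares); bars are 1 standard error. Bmp3 (1.38 and 1.87) and Bmp2 (-0.74 and -0.75) lie farthest from 0, and Bmp6 moves from -0.22 to 0.01.

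Calls among the 9 genes are given beside those over all genes. With edgeR's quasi-likelihood test, adjusted over all tested genes at 0.05, 0 of 9 were past the threshold with 6 libraries (2 at an unadjusted p under 0.05), where 0.0542% of all genes were (0.0162% higher and 0.0379% lower in KO). DESeq2 placed 2 of 9 past it, where it placed 2.14% of 18859 genes past it. Without WT replicate 1, 2 of 9 were past it, Bmp3 higher and Bmp2 lower, where 3.99% of 18994 genes were (1.65% higher and 2.34% lower). The KO and WT libraries did not overlap for 2 of the 9 (22.2%), and for 22.8% of all tested genes. The median log2 fold change of the 9 was -0.04, with 6 below 0, and that of all genes was -0.0029 with 50.3% below 0. Without WT replicate 1 the medians were 0.01, with 4 of the 9 below 0, and 0.0036, with 49.3% of all genes below 0. As the 9 were chosen on this contrast, nothing is read from these shares. No call of Bmp3 or Bmp2 was made by edgeR when any library other than WT replicate 1 was left out.

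Marker genes of several cell types stood higher or lower in KO in the same libraries as Bmp3 and Bmp2. With all 6 libraries edgeR called 0 genes in every marker list, and 22.8% of all tested genes did not overlap between groups. Without WT replicate 1 it called 7 of 8 mesothelium and 3 of 10 fibroblast markers lower. In that fit 5 of 6 natural killer cell and 2 of 5 airway markers were called higher, where 3.99% of all genes were called in either direction. Of the 9 mesothelium markers, 8 were tested and all 8 were below 0; their sum was 453 to 475 CPM in WT and 284 to 336 CPM in KO, with Krt19 the largest item (243 and 181 CPM on average), and Calb2 was at or near 0 throughout. The 10 fibroblast markers summed to 5990 to 10070 CPM in WT and 4659 to 4940 CPM in KO, with 9 of 10 below 0, and most of the sum was in Col1a1, Col1a2 and Col3a1. The 6 natural killer cell markers summed to 17.3, 82.5 and 84.0 CPM in WT and 157 to 162 CPM in KO, with 6 of 6 above 0. The 5 airway epithelium markers summed to 4692 to 5331 CPM in WT and 5946 to 7000 CPM in KO, but the sum was almost all Scgb1a1, the club cell secretoglobin gene (4149 and 5731 CPM on average). Within that list Scgb1a1 and Scgb3a2 were higher in KO with no overlap, Tppp3 was lower with no overlap (601 and 436 CPM), and Foxj1 and Cyp2f4 overlapped. The list had 3 of 5 above 0 with all 6 libraries and 4 of 5 without WT replicate 1. The part of these cell types in the values of Bmp3 and Bmp2 was not tested, and in bulk tissue fewer cells of a type and less RNA per cell cannot be told apart. The 8 alveolar epithelium markers summed to 21210 to 33540 CPM in WT and 18260 to 19580 CPM in KO, mostly from Sftpc, Sftpb and Sftpa1. With all 6 libraries 7 of 8 were below 0, but Rtkn2 was higher in KO with no overlap (238 and 299 CPM on average). Hopx and Aqp5 overlapped. The sums of the 8 smooth muscle markers overlapped between groups (966 to 2261 CPM in WT and 1212 to 1266 CPM in KO). So did the sums of the 6 cardiomyocyte markers (201 to 696 and 181 to 820 CPM). Of the smooth muscle markers, Hhip alone was lower in KO with no overlap (39.25 CPM in WT and 19.77 CPM in KO on average). The highest WT sum of both lists was that of WT replicate 1, where Des stood at 742.5 CPM and Actc1 at 649.2 CPM. Of the cardiomyocyte markers, 5 of 6 were above 0, and 6 of 6 without that library. The 7 cartilage markers summed to 4.01 to 8.20 CPM, most of it Sox9, and Matn1 was at 0 in all 6 libraries.

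The other genes of the pathway were 67 in number, of which 60 were tested; none was a member. With all 6 libraries edgeR called 0 of 60 (10 had an unadjusted p under 0.05), and DESeq2 called 1 of 59, Fst. Their median log2 fold change was -0.17, with 40 below 0, against -0.0029 for all genes. The KO and WT libraries did not overlap for 22 of the 60, 17 lower and 5 higher in KO, where 11.4% of all genes did not overlap in each direction. Without WT replicate 1 the median was -0.08, with 36 below 0 and 24 above 0. In that fit edgeR called 4 of 60 lower (6.67%, against 2.34% of all genes) and 0 higher (against 1.65% of all genes). The 4 called were Fst, Smad6, Htra1 and Skil.

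Fst, the gene of follistatin, which binds activins and some BMPs, stood at 32.1, 35.7 and 25.8 CPM in WT and at 18.5, 17.2 and 19.3 CPM in KO. All 3 KO libraries were under all 3 WT libraries. Its log2 fold change was -0.77 (SE 0.15 and adjusted p = 0.180 in edgeR) with all 6 libraries and -0.75 (SE 0.13 and adjusted p = 0.0140) without WT replicate 1. Smad6, an inhibitory SMAD that BMP signalling induces as feedback, stood at 651.8, 404.6 and 407.1 CPM in WT and at 334.6, 336.0 and 327.6 CPM in KO. The KO libraries were again all lower, and WT replicate 1 was the highest. The log2 fold change was -0.55 (SE 0.19 and adjusted p = 0.377 in edgeR), and -0.29 (SE 0.05 and adjusted p = 0.0132) without that library. Htra1, a secreted serine protease that binds TGF-beta family ligands, averaged 132.6 ± 31.8 CPM among WT and 93.1 ± 3.18 CPM among KO libraries (SD, n = 3 each), with no overlap. Its log2 fold change was -0.51 (SE 0.17 and adjusted p = 0.351 in edgeR), and -0.29 (SE 0.06 and adjusted p = 0.0303) without WT replicate 1. Skil, the gene of the SMAD corepressor SnoN, stood at 81.4, 122.2 and 117.5 CPM in WT and at 102.4, 95.2 and 99.4 CPM in KO. WT replicate 1 was the lowest of the 6 and the other 2 WT libraries lay above all KO libraries. Its log2 fold change was -0.11 (SE 0.16 and adjusted p = 0.761 in edgeR) with all 6 and -0.27 (SE 0.06 and adjusted p = 0.0394) without that library.

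By role, the tested receptors and coreceptors numbered 12, of which 9 were below 0 with all 6 libraries and none was called in either fit. Bmpr2, Acvrl1, Id2 and Id3 are outside the naming rule and were chosen after their values were seen. Bmpr2, the main type II receptor, had a log2 fold change of 0.01 (SE 0.09), and -0.04 (SE 0.05) without WT replicate 1. Acvrl1, the endothelial type I receptor ALK1, had one of -0.22 (SE 0.20) that became 0.06 (SE 0.05) without WT replicate 1. Eng, the ALK1 coreceptor endoglin, reached 1639 CPM in WT replicate 1 against 824.6 to 1022 CPM elsewhere, with a log2 fold change of -0.49 (SE 0.22) that became -0.18 (SE 0.06) without it. Hjv, the gene of hemojuvelin, a BMP coreceptor of skeletal muscle and liver, was named after its values were seen: it reached 93.9 CPM in WT replicate 1, the library with skeletal muscle markers, against 1.30 to 6.38 CPM elsewhere. Rgmb, another coreceptor of that family, had a log2 fold change of -0.44 (SE 0.18) with all 6 libraries and -0.20 (SE 0.07) without WT replicate 1, and was not called in either fit.

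The 13 tested targets held 1 call, Smad6, which also counts among the SMADs. Id1, a textbook target of SMAD1 and SMAD5, stood at 212.7, 174.6 and 199.1 CPM in WT and at 157.9, 157.2 and 158.1 CPM in KO. The KO libraries lay close together below all of WT, but the test was not passed: the log2 fold change was -0.31 (SE 0.10 and adjusted p = 0.361 in edgeR), and -0.24 (SE 0.06 and adjusted p = 0.0701) without WT replicate 1. Id3 stood at -0.20 (SE 0.19) with all 6 libraries and at 0.04 (SE 0.08) without WT replicate 1, and Id2 at 0.09 (SE 0.13) and -0.01 (SE 0.08), on the log2 scale. Unc5b, a netrin receptor, had a log2 fold change of -0.42 (SE 0.18), and -0.18 (SE 0.06) without WT replicate 1. Runx2, a bone transcription factor, had one of 0.60 (SE 0.26), and 0.36 (SE 0.14) without it. Neither was called in either fit.

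Other ligands and antagonists that the naming rule gives were not called either. Chrd, the gene of the antagonist chordin, averaged 4.85 ± 0.944 CPM among WT and 2.69 ± 0.484 CPM among KO libraries (SD, n = 3 each), and Bmp8a, a little-studied ligand, 2.27 ± 0.140 and 3.77 ± 0.497 CPM. The 2 groups did not overlap for either gene. Their log2 fold changes were -0.85 (SE 0.25 and adjusted p = 0.311 in edgeR) and 0.73 (SE 0.22 and adjusted p = 0.313), and without WT replicate 1 they were -0.81 (SE 0.26) and 0.70 (SE 0.24). Gdf2, the gene of the circulating ligand BMP9, and Gdf10, or BMP3B, the nearest relative of Bmp3, averaged 0.936 and 1.21 CPM in WT and 0.276 and 0.340 CPM in KO, at the low end of what was counted. Without WT replicate 1 the WT means were 1.03 CPM for Gdf2 and 0.727 CPM for Gdf10. Fstl1 and Nbl1, both for secreted BMP-binding proteins, had log2 fold changes of -0.47 (SE 0.19) and -0.39 (SE 0.17), which were -0.22 (SE 0.07) and -0.16 (SE 0.06) without WT replicate 1. Pcsk5, a proprotein convertase of the kind that cleaves BMP precursors, stood at -0.24 (SE 0.11) on the log2 scale, and at -0.21 (SE 0.09) without WT replicate 1. All 4 convertases tested were below 0 with all 6 libraries and 3 of 4 without that library, where Pcsk6 turned from -0.27 (SE 0.28) to 0.18 (SE 0.08), and none was called in either fit.

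**Figure D4:**
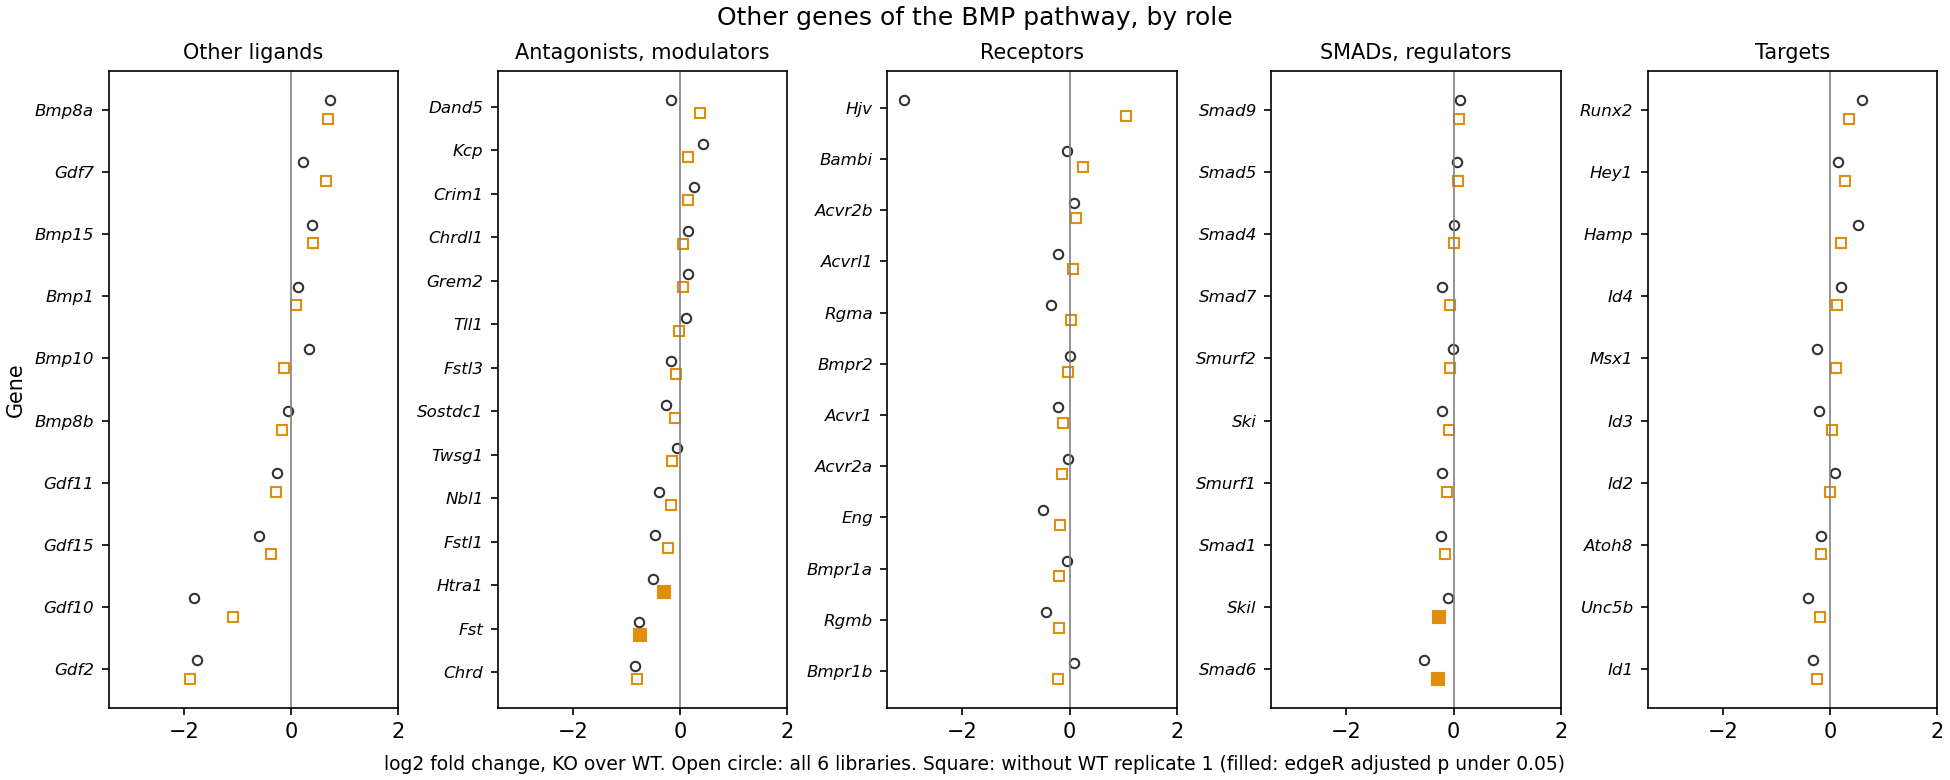
log2 fold change, KO over WT, of other BMP pathway genes in 5 role groups; open circles are the fit with all 6 libraries and squares the fit without WT replicate 1, filled where edgeR's adjusted p was under 0.05. Fst, Htra1, Smad6 and Skil are the 4 filled squares, all below 0, and Hjv moves from -3.09 to 1.05.

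Genes whose profile over the libraries was nearest to that of a member were found by the root mean square (RMS) difference of centred log2 CPM, among 13766 genes. Nearest to Bmp3 was Akr1b8, an aldo-keto reductase gene, with a difference of 0.167 over 6 libraries and 0.162 without WT replicate 1, where Bmp3 itself varied by 0.876 and 0.960. Akr1b8 stood at 9.62, 4.68 and 5.60 CPM in WT and at 17.4, 22.1 and 14.3 CPM in KO, with WT replicate 1 the highest in WT and KO replicate 2 the highest of all, as for Bmp3. Fpr3 (0.383) and Cpxm2 (0.390) came next over 6 libraries, and Itgad (0.244) and Acat2l1 (0.265) over 5. Nearest to Bmp2 was Gal3st3, a galactose sulfotransferase gene, at 0.0443 and 0.0480; it stood at 20.3, 22.7 and 19.8 CPM in WT and at 11.3, 13.5 and 11.1 CPM in KO. Gpnmb and Naaa followed over 6 libraries, both at 0.105, and Cxcr1 (0.0693) and Unc5c (0.0697) over 5. Nearest to Bmp7 were Acat2 (0.0887), Penk (0.0953) and Asgr2 (0.140) over 6 libraries and Mmp25 (0.0771), Adra2a (0.0819) and Nlrp10 (0.0826) over 5, so none of the 3 names was shared. A likeness over so few libraries ranks profiles and carries no test.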

How the data were processed

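Per the labels' protocols, TRIzol RNA of 6 lungs was poly-T selected and sequenced as paired 150 base reads, all in 1 batch. The submitters' processing notes name featureCounts 2.0.6, HISAT2 2.2.1, DESeq2 1.42.0 and StringTie 2.2.3, with the build mRatBN7.2, without roles. The authors deposited raw counts, FPKM values, and a table of their comparison with a normalized signal per library, log2 fold changes and p-values. Even low counts outnumbered odd ones by 1.72 to 1.97 times, a pattern that counting both mates gives, so independent fragments are fewer than the counts.

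Counts were tested with edgeR 4.0.16 in R 4.3.3 (TMM, filterByExpr with a minimum count of 10, glmQLFit and glmQLFTest, genotype as the only term), with Benjamini-Hochberg adjustment over all tested genes and a threshold of 0.05. CPM uses TMM library sizes; SE is the log2 fold change over the root of F. Alternatives used DESeq2 1.42.0 and limma 3.58.1 (on voom values, and on log2 FPKM plus 1 or plus 0.1). The scripts were tested on simulated data. The members, lists and the fit without WT replicate 1 were chosen with earlier results of these data known, and the promoter motifs after the values were seen. Named pathway genes are those called in either fit, then by smallest p, up to 16, and any other pathway gene was chosen after its values were seen; nearest profiles were sought for the 3 members with the largest fold change. All listed symbols matched the table, 1 of them through RefSeq. Each p-value sets the genotype difference against the spread among the libraries within each genotype.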

Additional observations from a re-analysis of the deposited data

How the results depend on the processing

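Of the 9 genes, Bmp2, Bmp3, Bmp4, Bmp5, Bmp7 and Bmper kept the sign of their log2 fold change in all 15 alternatives (1.08 to 1.87 for Bmp3, -0.86 to -0.58 for Bmp2). Bmp6 turned in 1 (without WT replicate 1), Grem1 in 3 of 14 and Nog in 5 of 15. Members called were 0 in edgeR, 2 with DESeq2 and 0 to 2 when 1 library was left out, the 2 being without WT replicate 1. Pathway genes called were 0, 1 with DESeq2, and 0 to 4 when 1 library was left out, the 4 again without WT replicate 1. Over all genes, 10 were called by edgeR, 403 by DESeq2 and 2 with the replicate block, and 1 to 758 when 1 library was left out: 758 without WT replicate 1, 2 without WT replicate 2, 1 without KO replicate 1 and 2 without KO replicate 2 or KO replicate 3. The causes were not tested. Same-numbered libraries did not deviate together (correlations of -0.0808, 0.0275 and -0.0848). That cannot exclude a pairing of the rats, since litter is not given and each correlation rests on deviations within small groups. The replicate block gave 0 calls among members and pathway genes. Upper quartile scaling moved the median of all genes to 0.04 on the log2 scale. Depth limits Grem1 (8 to 32 counts) and Nog (26 to 49 counts).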
